A study of Mus musculus with 4 samples.

Results

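The genes described here had few or no reads in hematopoietic stem and progenitor cells (HSPC) of caNIK mice and were read in both control libraries. They were chosen from the raw counts as every gene with at most 3 reads summed over the 2 caNIK libraries and at least 10 reads in each of the 2 control libraries. Of 24015 gene symbols counted, 32 met both limits, and 12904 met the control limit alone. The same limits turned round, at least 10 reads in each caNIK library and at most 3 over the control pair, were met by 308 genes.

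The caNIK samples came from a cross of a Rosa-loxp-STOP-loxp-NIK line with the Vav-iCre line, so that blood cells made a form of the kinase NIK that its regulator TRAF3 cannot bring to degradation. Vav-iCre is known to act from early blood formation onward, in all blood lineages. The other samples were labelled control. No source used here gives their alleles, or the sort markers, tissue, sex, age and number of animals of either group. Each group had 2 RNA-seq libraries (n = 2), with 18574452 and 21825077 counts in caNIK and 18656529 and 23162766 counts in control. Nothing in the labels ties a replicate to an animal or culture of its own, and p-values therefore rest on the spread between libraries, which may be technical. Every library held reads both of Xist, at 21187 to 38009, and of each of 4 Y-linked genes. From control replicate 1 to control replicate 2, Xist went from 38009 to 21187 reads. The Y-linked genes rose there, Ddx3y from 527 to 1123, Eif2s3y from 216 to 886, Kdm5d from 336 to 749 and Uty from 103 to 416. Whether the libraries of a group were made from different cells was not tested. Map3k14, the gene of NIK, had 3305 and 3989 reads in the caNIK libraries and 582 and 588 in the control libraries.

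NIK is the kinase that starts the non-canonical NF-kB pathway. It leads to the processing of p100 to p52, which enters the nucleus with RelB and acts on target genes. Stem and progenitor cells carry many genes at a very low level, some of them early traces of a lineage the cell may enter and some better known from tissues outside the blood, and in bulk RNA such genes stand at a few reads per library.

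The 32 genes held 18 reads in caNIK replicate 1 and 18 in caNIK replicate 2, against 898 in control replicate 1 and 945 in control replicate 2. No caNIK read fell on 11 of them, 1 read on 10, 2 reads on 7 and 3 reads on 4. These values chose the genes, so they describe them and support nothing further. In bulk RNA, fewer cells that make a transcript and less of it per cell cannot be told apart.

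**Figure D1:**
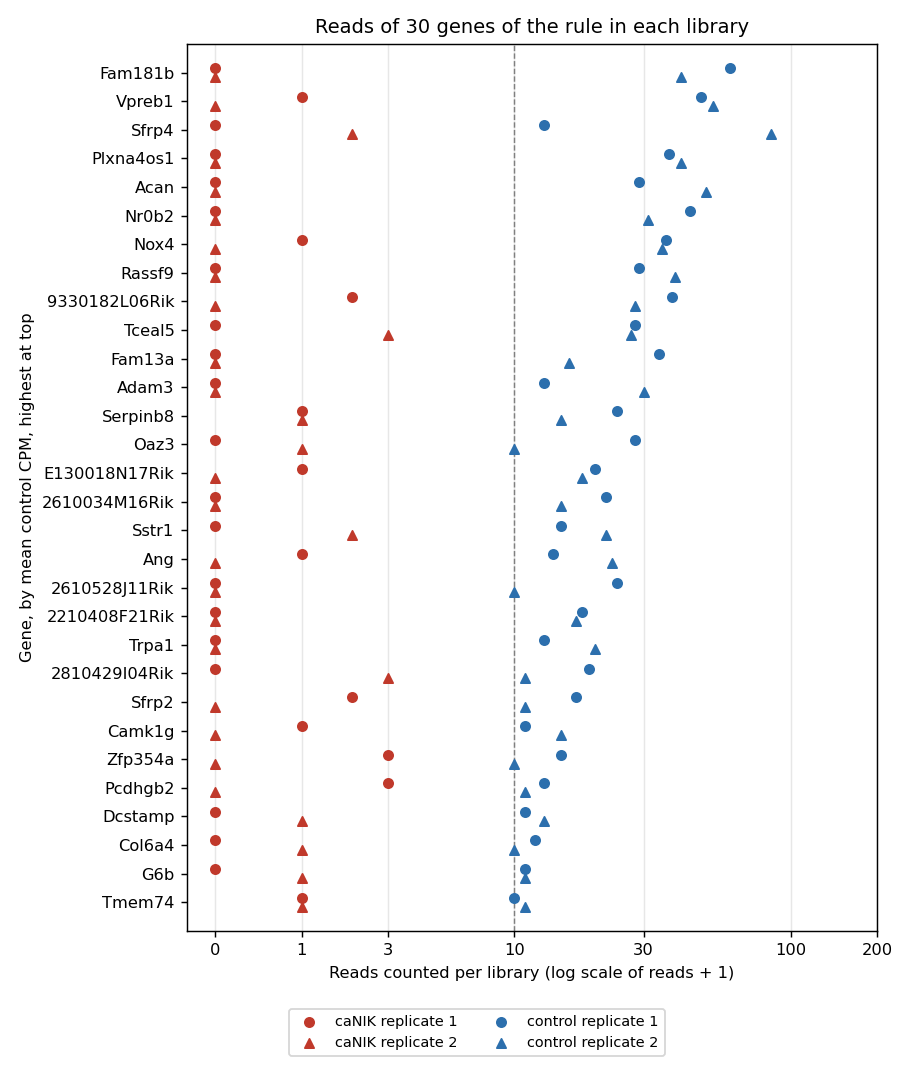
Reads of each gene in each library on a log scale of reads + 1, with caNIK libraries in red, control libraries in blue, circles for replicate 1 and triangles for replicate 2. The dashed line marks 10 reads, the control minimum of the rule. Of the 32 genes 30 are shown. Red points lie at 0 to 3 reads for every gene shown, and Sfrp4, at 13 and 85 control reads, has the widest gap between its blue points.

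Levels are given as CPM, a gene's share of its library's counts after TMM scaling (trimmed mean of M values), for which 10 reads were worth 0.537 and 0.482 CPM in the caNIK libraries and 0.519 and 0.426 CPM in the control libraries. In control the median of the 32 genes was 0.921 CPM, and those named below lay between 0.494 CPM (Tmem74) and 2.46 CPM (Fam181b). The median over all 12904 genes at 10 or more reads in each control library was 31.5 CPM. Of the 32 genes, 19 lay below 1 CPM. For a gene without a caNIK read, 3 reads over the caNIK pair, worth 0.0762 CPM, are the upper limit that a count of 0 allows.

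**Figure D2:**
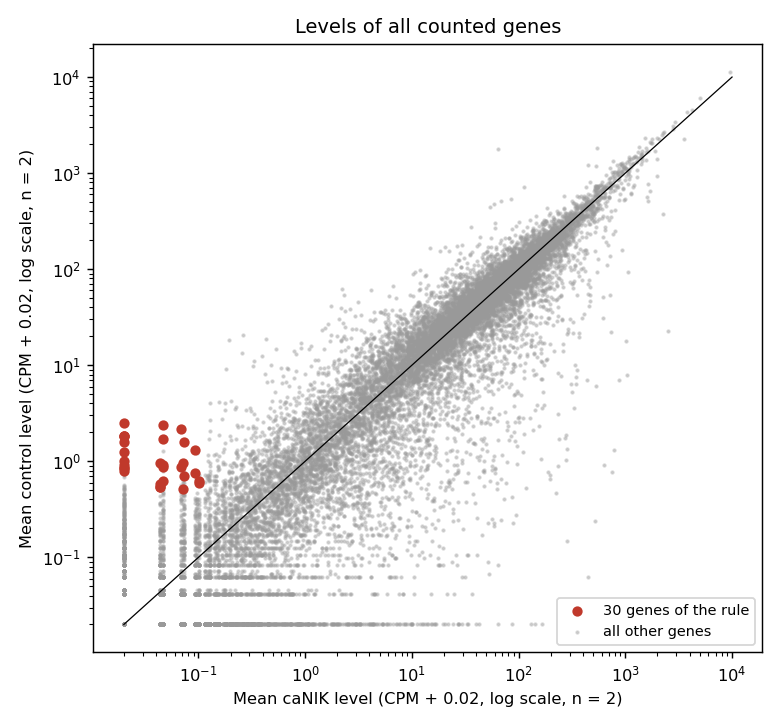
Mean caNIK level against mean control level of all counted genes, in CPM + 0.02 on log scales (n = 2 libraries each), with 30 genes of the rule in red and the line of equal levels in black. The red points sit at the left edge, between 0.494 and 2.46 CPM in control, away from the dense cloud of genes at higher levels.

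Ordered per kilobase of exon, the scale on which genes can be compared, Vpreb1 was highest of the genes named here in control, at 3.10 ± 0.214 CPM per kb (SD, n = 2). Nr0b2 followed at 1.59 ± 0.601, then Tceal5 at 1.25 ± 0.204 and Fam181b at 1.23 ± 0.5003 CPM per kb. Nr0b2, Tceal5 and Fam181b differed by less than the spread of their libraries. The other genes named here lay below 1 CPM per kb, down to 0.0711 for Col6a4, and the median of the 32 was 0.314. Exon lengths were those of GENCODE M21, which need not be the gene models the authors counted on.

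By type, 27 of the symbols belong to protein-coding genes and 4 to long non-coding RNAs, and 1 symbol, G6b, is shared by a coding gene and its antisense RNA. They lie on 19 chromosomes, with no more than 3 on any of them.

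Where a control-to-caNIK ratio of levels is given for a gene with 1 to 3 caNIK reads, it has an exact 95% interval for counting error alone. The rule chose genes on these same counts, so the interval does not keep its 95% coverage and only describes the counts. For a gene with none, the fold is a lower bound set by 3 counts over the caNIK pair. It takes the control count as exact, so it is not comparable with the limits of those intervals.

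Channels and receptors of the cell surface made the first group. Trpa1, the cation channel of sensory nerves that responds to irritants, had no caNIK read and 13 and 20 control reads (0.763 ± 0.126 CPM, SD, n = 2), at least 10.1-fold lower in caNIK. Sstr1, a receptor for the inhibitory peptide somatostatin, had 0 and 2 reads in caNIK and 15 and 22 in control. The libraries of the 2 groups did not overlap for these genes, as the rule requires.

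Vpreb1 encodes a chain of the surrogate light chain, which stands in for the antibody light chain in the pre-B cell receptor of developing B cells. It had 1 and 0 reads in caNIK and 48 and 53 in control (2.37 ± 0.164 CPM), a ratio of 93.0 (16.3 to 3709). Vpreb2, its near-identical copy, had 7 and 0 reads in caNIK and 16 and 16 in control. Reads of such copies may have been shared between them by the counting, so the split between Vpreb1 and Vpreb2 is uncertain.

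G6b, the symbol of an inhibitory receptor of megakaryocytes and platelets, had 0 and 1 reads in caNIK and 11 and 11 in control. A RefSeq table links this symbol both to the receptor gene Mpig6b and to the antisense RNA G6bos, and no source used here gives the strand setting of the counting. Dcstamp, a membrane protein needed for the fusion of osteoclasts, had 0 and 1 reads in caNIK and 11 and 13 in control. Tmem74, a membrane protein linked to autophagy in human cells, had 1 and 1 reads in caNIK and 10 and 11 in control, the lowest control level of the 32. Pcdhgb2 is one variable exon of the gamma-protocadherin cluster, whose adhesion proteins give neurons their identity. It had 3 and 0 reads in caNIK and 13 and 11 in control. It shares its last exons with the rest of the cluster. The symbol 9330182L06Rik is now Elapor2, a membrane protein gene. It had 2 and 0 reads in caNIK and 38 and 28 in control (1.58 ± 0.550 CPM), a ratio of 30.4 (8.09 to 256).

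Secreted and matrix proteins made a second group. Acan encodes aggrecan, the large proteoglycan of cartilage. It had no read in either caNIK library and 29 and 50 in control (1.82 ± 0.443 CPM), at least 24.2-fold lower in caNIK. Sfrp4 and Sfrp2 encode secreted frizzled-related proteins, which bind Wnt ligands outside the cell. Sfrp4 had 0 and 2 reads in caNIK and 13 and 85 in control, and Sfrp2 had 2 and 0 reads in caNIK and 17 and 11 in control. Ratios were 45.1 (12.2 to 378) for Sfrp4 and 12.9 (3.25 to 112) for Sfrp2. The high control level of Sfrp4 rested on control replicate 2. Col6a4, a collagen VI chain, had 0 and 1 reads in caNIK and 12 and 10 in control. Ang encodes angiogenin, a secreted ribonuclease that promotes vessel growth and also acts on stem cells of the marrow in mice. It had 1 and 0 reads in caNIK and 14 and 23 in control (0.853 ± 0.179 CPM), a ratio of 34.1 (5.75 to 1382).

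Enzymes, inhibitors and signalling proteins were the third group. Nox4 encodes an NADPH oxidase that makes hydrogen peroxide in many non-phagocytic cells. It had 1 and 0 reads in caNIK and 36 and 35 in control (1.68 ± 0.266 CPM), a ratio of 65.4 (11.4 to 2618). Rassf9, a protein with a Ras-association domain, had no caNIK read and 29 and 39 control reads (1.58 ± 0.111 CPM), at least 20.9-fold lower in caNIK. Fam13a, a RhoGAP-domain protein linked to human lung disease, had no caNIK read and 34 and 16 control reads (1.22 ± 0.765 CPM), at least 15.3-fold lower. In all of these the control libraries lay above the caNIK libraries, as the rule requires, and for Fam13a the control libraries differed from each other.

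Camk1g, a calmodulin-dependent kinase of neurons, had 1 and 0 reads in caNIK and 11 and 15 in control. Serpinb8, an inhibitor of furin-like proteases inside the cell, had 1 and 1 reads in caNIK and 24 and 15 in control. The symbol 2610034M16Rik is now Pdzph1, named for its PDZ and PH domains, and had no caNIK read and 22 and 15 control reads, at least 11.4-fold lower. Adam3 and Oaz3 are known from the testis, Adam3 as a protein that sperm need for transport and binding to the egg and Oaz3 as the antizyme that restrains polyamine synthesis in sperm cells. Adam3 had no caNIK read and 13 and 30 control reads, at least 13.2-fold lower. Oaz3 had 0 and 1 reads in caNIK and 28 and 10 in control.

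The nuclear group held Nr0b2, the orphan nuclear receptor SHP, which lacks a DNA-binding domain and represses other receptors, in the liver those that drive bile acid synthesis. It had no caNIK read and 44 and 31 control reads (1.80 ± 0.680 CPM), at least 23.0-fold lower in caNIK. Zfp354a, a KRAB zinc finger protein, had 3 and 0 reads in caNIK and 15 and 10 in control. Tceal5, an X-linked gene of the family of transcription elongation factor A-like proteins, had 0 and 3 reads in caNIK and 28 and 27 in control (1.30 ± 0.213 CPM), a ratio of 16.9 (5.48 to 84.4). Fam181b had no caNIK read and 61 and 41 control reads (2.46 ± 1.002 CPM), at least 31.3-fold lower, the highest such bound of the 11 genes without a caNIK read. The gene 2610528J11Rik had no caNIK read and 24 and 10 control reads. Fam181b and 2610528J11Rik are coding genes without a role given here, and they are not placed here as nuclear proteins.

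Among the non-coding RNAs, Plxna4os1 had no caNIK read and 37 and 41 control reads (1.83 ± 0.122 CPM), at least 23.9-fold lower in caNIK. 2210408F21Rik had no caNIK read and 18 and 17 control reads, at least 10.7-fold lower. E130018N17Rik had 1 and 0 reads in caNIK and 20 and 18 in control, and 2810429I04Rik had 0 and 3 in caNIK and 19 and 11 in control. Plxna4os1 lies antisense to Plxna4, a semaphorin co-receptor gene, whose own counts were 15 and 7 in caNIK and 0 and 29 in control. Plxna4 thus had no read in control replicate 1, where Plxna4os1 had 37.

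Promoter sequences are shown for the 6 genes with the highest control level that RefSeq's promoter table holds, so that the start regions of these genes can be compared. Each runs 5′ to 3′ on the gene's strand over 300 bases, 250 before the start and 50 after it, in build GRCm38.p6. Capitals mark matches, on either strand, to any of 6 motifs: kappaB as GGG, then 5 bases of any kind, then CC, GATA as AGATAA, RUNX as TGTGGT, E-box as CAGCTG, ETS as CCGGAA and the TATA box as TATAAA. Where matches touch or overlap, the capitals run together.
Fam181b, chr7:93079629-93079928, plus strand: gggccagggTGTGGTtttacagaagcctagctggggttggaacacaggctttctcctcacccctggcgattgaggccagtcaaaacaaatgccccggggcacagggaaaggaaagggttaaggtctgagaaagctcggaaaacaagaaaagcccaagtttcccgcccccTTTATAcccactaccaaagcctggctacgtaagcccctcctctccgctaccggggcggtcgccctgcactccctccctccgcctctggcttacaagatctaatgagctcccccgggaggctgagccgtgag
Vpreb1, chr16:16869206-16869505, minus strand: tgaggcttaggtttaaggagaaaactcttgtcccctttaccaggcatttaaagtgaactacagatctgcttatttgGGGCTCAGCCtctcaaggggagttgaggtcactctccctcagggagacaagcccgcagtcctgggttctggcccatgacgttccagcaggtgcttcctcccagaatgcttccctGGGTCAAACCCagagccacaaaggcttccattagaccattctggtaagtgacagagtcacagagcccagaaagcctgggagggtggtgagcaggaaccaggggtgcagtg
Acan, chr7:79052976-79053275, plus strand: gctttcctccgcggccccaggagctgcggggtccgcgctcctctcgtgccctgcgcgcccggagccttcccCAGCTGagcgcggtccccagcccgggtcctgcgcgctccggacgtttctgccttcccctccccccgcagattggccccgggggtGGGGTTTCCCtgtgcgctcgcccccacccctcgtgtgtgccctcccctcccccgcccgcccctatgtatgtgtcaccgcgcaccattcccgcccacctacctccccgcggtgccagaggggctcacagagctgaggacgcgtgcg
Nr0b2, chr4:133553126-133553425, plus strand: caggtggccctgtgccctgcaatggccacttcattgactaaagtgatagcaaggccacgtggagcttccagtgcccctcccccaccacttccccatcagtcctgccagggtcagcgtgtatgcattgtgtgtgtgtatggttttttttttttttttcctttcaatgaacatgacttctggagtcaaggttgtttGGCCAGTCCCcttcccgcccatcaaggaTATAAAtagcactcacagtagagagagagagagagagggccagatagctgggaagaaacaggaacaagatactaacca
Nox4, chr7:87246399-87246698, plus strand: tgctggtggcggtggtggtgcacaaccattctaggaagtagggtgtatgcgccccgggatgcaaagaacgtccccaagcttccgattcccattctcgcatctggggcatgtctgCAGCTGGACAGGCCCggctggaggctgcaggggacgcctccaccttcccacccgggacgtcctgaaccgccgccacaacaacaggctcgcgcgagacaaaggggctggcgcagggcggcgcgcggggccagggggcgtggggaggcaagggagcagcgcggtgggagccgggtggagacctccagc
9330182L06Rik (Elapor2), chr5:9265868-9266167, plus strand: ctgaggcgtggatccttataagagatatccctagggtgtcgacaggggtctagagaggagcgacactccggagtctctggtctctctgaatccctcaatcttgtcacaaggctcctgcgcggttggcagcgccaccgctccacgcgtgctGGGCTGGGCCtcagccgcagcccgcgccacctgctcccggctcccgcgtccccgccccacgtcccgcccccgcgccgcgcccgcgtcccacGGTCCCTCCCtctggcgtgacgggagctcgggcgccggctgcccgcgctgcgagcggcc

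The windows differ in composition. Those of Acan and Elapor2 were 74% and 71.3% G and C with 31 and 35 CpG dinucleotides, and that of Nox4 was 68.3% with 24. Vpreb1 and Nr0b2 had windows of 54% and 49.7% with 2 and 3 CpGs, and Fam181b stood between at 58.7% with 12. A kappaB match was present in all of these windows except that of Fam181b, and a TATA box match in those of Fam181b and Nr0b2.

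Over the 18 genes matched, 20 windows were available, 3 of them for Tceal5. Their median was 55.7% G and C and 8 CpGs, against 52.7% and 7 over all 32851 windows of the table. Windows with at least 10 CpGs were 35% of the 20 and 43.5% of all. The kappaB letters were in 15 of the 20 windows, or 75%, against 50.8% of all windows. For the E-box the shares were 35% and 16.3%, for GATA 15% and 11.2%, for RUNX 15% and 16.8%, for ETS 5% and 14.9%, and for the TATA box 10% and 13.6%. These shares count windows, not genes. The 3 windows with the GATA letters came only from Pdzph1 and Tceal5, and those of Tceal5 overlap. The windows of the set are also the richer in G and C, and the part of that in these shares was not tested. A match is a description of the letters, not a site.

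The control libraries were also set beside each other, as a description, since the rule used their counts too. Its floor of 10 reads stood at a higher CPM in control replicate 1 than in replicate 2, which favours ratios below 1 among genes near the floor. The part of the floor in the ratios that follow was not tested. The ratio of control replicate 2 to control replicate 1 had a median of 0.795 over the 32 genes, against 0.999 over the 12904 genes. For 27 genes the control libraries lay within 2-fold of each other, and for 26 the exact 95% counting interval of the ratio included 1. The ratio was highest for Sfrp4, at 5.37 (2.98 to 10.5). It was lowest for Oaz3, at 0.293 (0.127 to 0.622), and the other genes below 1 whose intervals left out 1 were 2610528J11Rik at 0.342, Fam13a at 0.387, Fam181b at 0.552 and Nr0b2 at 0.579. Steady pairs were Vpreb1 at 0.907 (0.602 to 1.37) and Plxna4os1 at 0.910 (0.569 to 1.46).

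**Figure D3:**
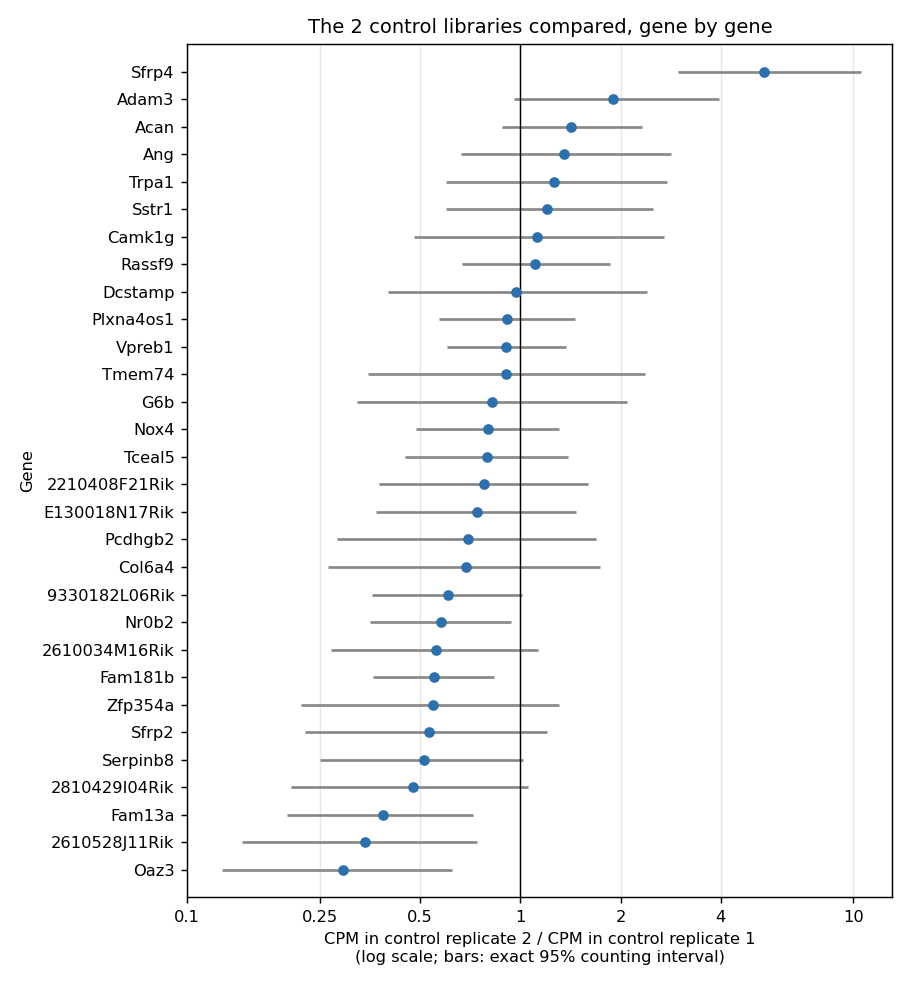
Ratio of the level in control replicate 2 to that in control replicate 1 for 30 of the 32 genes, on a log scale, with exact 95% counting intervals as bars. Sfrp4, at 5.37, stands apart to the right, and 5 genes with intervals below 1 stand to the left.

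Some markers of marrow stroma, like Sfrp4, were higher in control replicate 2 than in control replicate 1. The summed level of 6 stromal markers, among them the chemokine gene Cxcl12 and the collagen genes Col1a1 and Col1a2, was 185 and 131 CPM in caNIK and 13.3 and 138 CPM in control replicates 1 and 2. That of the control libraries differed mainly through Cxcl12, Col1a1 and Col1a2. Lepr had 3.65 and 5.30 CPM in caNIK and 4.88 and 4.94 CPM in control, and Pdgfra had 0.537 and 0.627 CPM in caNIK and 0.467 and 0.426 CPM in control. None of the 6 passed edgeR's test between groups (adjusted p from 0.26 to 0.86). Summed eosinophil markers also differed, at 64.2 and 492 CPM in control replicates 1 and 2, as did granulocyte-monocyte markers at 1358 and 3264 CPM. Sums of macrophage, dendritic, erythroid, megakaryocyte, and mast cell and basophil markers were higher in control replicate 2 too. Those of stem cell, endothelial, B, T and NK cell and sex-linked markers were lower there, with B cell markers at 262 and 142 CPM. The sex-linked sum, at 2033 and 1038 CPM in control replicates 1 and 2, was lower through Xist alone, at 1971 and 903 CPM. Every Y-linked gene of that list had more in control replicate 2. Ddx3y had 27.3 and 47.8 CPM, Eif2s3y 11.2 and 37.7, Kdm5d 17.4 and 31.9 and Uty 5.34 and 17.7 CPM. The part of stromal or other cells in the level of Sfrp4 was not tested. Epdr1, the gene beside Sfrp4, had 78 and 152 reads in caNIK and 193 and 701 in control, with the higher control value also in replicate 2.

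Of the 32 genes, 23 passed the expression filter of the test across all genes (edgeR's filterByExpr), and they passed it through the control libraries alone. In edgeR's quasi-likelihood test with Benjamini-Hochberg adjustment, 20 of these 23 were past the threshold of an adjusted p under 0.05 as lower in caNIK. Over all 14191 genes tested, 8.21% were lower and 13.8% higher. Without caNIK replicate 1 it was 10 of 32, and without caNIK replicate 2 it was 6 of 31, where the lone caNIK library is assumed to vary like the control libraries. The rule used this same contrast, so nothing is read from these counts. The 9 genes that did not pass the filter were Oaz3, 2610528J11Rik, 2810429I04Rik, Sfrp2, Zfp354a, Pcdhgb2, Col6a4, G6b and Tmem74. The same 9 also leave the set when the limits are put on counts scaled to the mean effective library size, since 10 reads in the deeper control library are worth 0.426 CPM and in the other 0.519 CPM.

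Near the limits, 4 genes had 3 caNIK reads and 14 more had 4, just outside. Among those outside were Trim55, a muscle ubiquitin ligase, with 4 and 0 reads in caNIK and 52 and 62 in control, and the kinase gene Nrk, with 4 and 0 in caNIK and 119 and 45 in control. A further 13 genes had 5 caNIK reads, among them Hnmt, which inactivates histamine, with 5 and 0 in caNIK and 92 and 83 in control. At the control limit, 11 genes of the set had 10 or 11 reads in their lower control library, and 21 genes with 8 or 9 fell outside, among them the lectin gene Cd209a, with no caNIK read and 8 and 11 control reads. These examples were chosen after their values were seen.

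The genes that flank the 32 were not used by the rule. In RefSeq's gene order, 64 flanking genes were counted here, 1 on each side. Of these, 31 did not pass the filter, 20 of them without a read in any library, a share of 48.4% against 40.9% of all symbols. Of the 33 tested, 4 were lower and 2 higher, against 8.21% and 13.8% over all genes tested, and 27 did not pass. Their median log2 fold change was -0.20, against 0.00 over all genes tested. Among the flanking genes that passed were Igll1, Tie1 and Bex1, which fell, and Isg20, which rose.

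Igll1, the other chain of the surrogate light chain, lies beside Vpreb1 and had 3 and 5 reads in caNIK and 84 and 63 in control. Its level was 0.201 ± 0.0565 CPM in caNIK and 3.52 ± 1.18 CPM in control (SD, n = 2). On the log2 scale, caNIK over control, it fell by 4.08 ± 0.70 (SE), with an edgeR adjusted p of 0.0089. Igll1 was thus low in both caNIK libraries, as was Vpreb1 by the rule. Vpreb2, the near-identical copy of Vpreb1, did not pass (-2.01 ± 1.25, edgeR adjusted p = 0.30). On the other side of Vpreb1, the topoisomerase gene Top3b had 1450 and 1736 reads in caNIK and 1762 and 2245 in control and did not pass (-0.21 ± 0.15, edgeR adjusted p = 0.35).

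Tie1, an endothelial and stem cell receptor kinase beside 2610528J11Rik, fell to 6.09 ± 1.18 CPM in caNIK, against 52.4 ± 2.03 CPM in control (log2 fold change -3.11 ± 0.23, edgeR adjusted p = 4.2e-04). Bex1, beside Tceal5 on the X chromosome, fell by 2.18 ± 0.43 on the log2 scale (edgeR adjusted p = 0.014). Isg20, an interferon-induced exonuclease gene beside Acan, rose by 2.53 ± 0.19 (edgeR adjusted p = 4.1e-04). For Nox4, Nr0b2, Fam181b, Fam13a and Plxna4os1 no tested flanking gene passed, and those tested lay between -0.62 (Tigd2, beside Fam13a) and 0.43 (Herc3, also beside Fam13a) on the log2 scale.

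**Figure D4:**
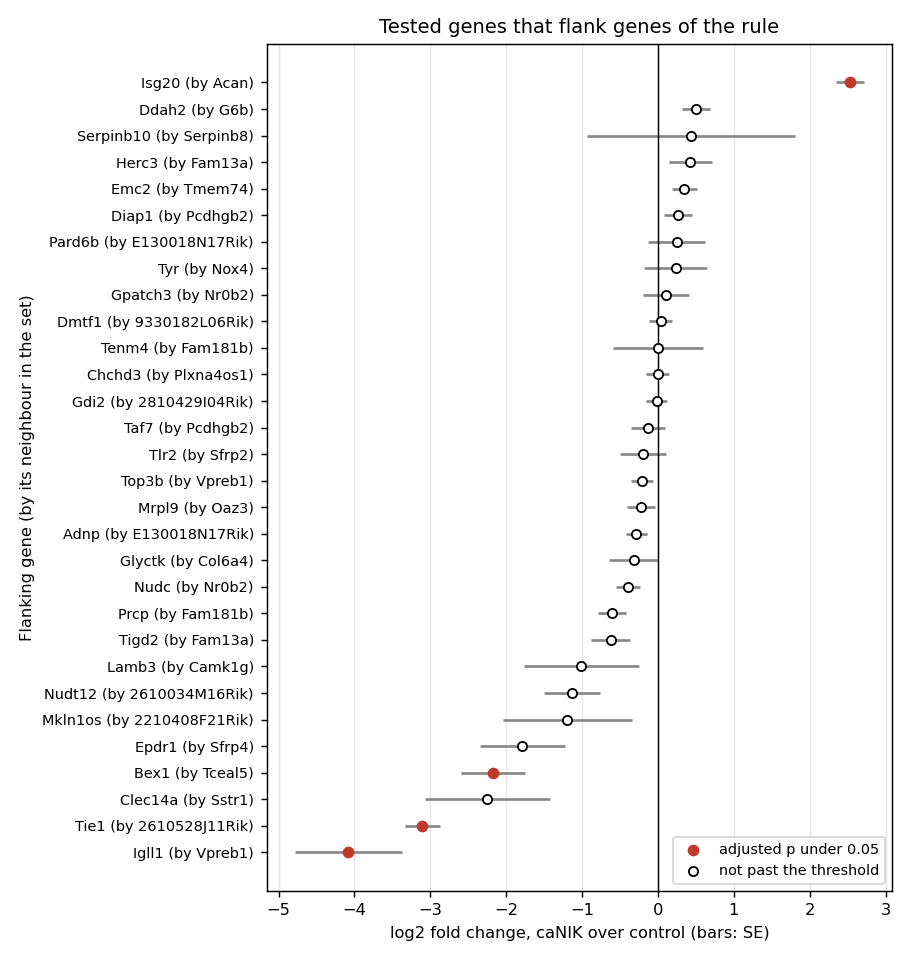
Log2 fold change, caNIK over control, of 30 tested genes that flank genes of the rule, with SE as bars and filled red points for an adjusted p under 0.05 in edgeR's test. Isg20 lies to the right at 2.53 and Igll1 farthest to the left at -4.08, and most flanking genes lie near 0.

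Genes that share exons with one of the 32 were also read. Tdrkh, a gene of the germ line piRNA pathway whose exons overlap those of Oaz3 on the other strand in GENCODE M21, had 80 and 82 reads in caNIK and 440 and 457 in control. It fell by 2.36 ± 0.28 on the log2 scale (edgeR adjusted p = 0.0023). Mrpl9, which also overlaps Oaz3, had 1079 and 1559 reads in caNIK and 1414 and 1923 in control and did not pass (edgeR adjusted p = 0.43). Rnase4, a ribonuclease gene that shares its start region and exons with Ang, had 43 and 35 reads in caNIK and 169 and 188 in control, and fell by 2.07 ± 0.42 (edgeR adjusted p = 0.015). Without a known strand or overlap setting, reads of Oaz3 cannot be told apart from those of Tdrkh, nor reads of Ang from those of Rnase4, where their exons coincide.

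Relatives of the 32 genes in the same gene families were more often called higher than lower in caNIK. Families were drawn up by symbol after the 32 genes were known, and 23 families held 219 relatives, of which 96 were tested. Of these 96, 27 were higher and 5 lower, or 28.1% and 5.21%, and the median over the 96 was 0.07 on the log2 scale. The corresponding shares of all genes tested were 13.8% and 8.21%. The higher calls were spread unevenly over the families, with 6 among ADAM proteases, 5 among clade B serpins and 3 among NADPH oxidase genes. The 5 lower relatives were Igll1, Rnase4, Sstr2, Camk1d and Camkk1.

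Among NADPH oxidase genes, Cybb, the phagocyte oxidase, had 106 ± 30.6 CPM in caNIK and 4.83 ± 1.84 CPM in control (log2 fold change 4.45 ± 0.34, edgeR adjusted p = 4.8e-04). Its partner Cyba, which Nox4 also needs, rose by 1.74 ± 0.16, and the subunit gene Ncf4 by 1.23 ± 0.15. Nox4 was thus low in caNIK libraries in which 3 of 7 tested genes of its family rose.

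The frizzled-related genes divided by member. Sfrp1 had 335 and 194 reads in caNIK and 2 and 21 in control, a log2 fold change of 4.71 ± 0.83 (edgeR adjusted p = 0.0095). Sfrp5 had 116 and 86 reads in caNIK and none in control, at least 73.1-fold higher. In a wider list of Wnt antagonists, 8 genes besides Sfrp2 and Sfrp4 were tested, of which 3 were higher and 3 lower, with a median of 0.75. The third that rose was the ubiquitin ligase gene Rnf43 (2.45 ± 0.43), and those that fell were Apcdd1 (-5.81 ± 0.95), Znrf3 (-1.19 ± 0.28) and Kremen1 (-1.13 ± 0.32; edgeR adjusted p from 0.0075 to 0.048 over these). Znrf3 was not called without control replicate 2 or without caNIK replicate 2, nor Kremen1 without control replicate 1 or caNIK replicate 2 (edgeR adjusted p up to 0.11 and 0.084).

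Sstr2, the other somatostatin receptor gene that was tested, fell. It had 16 and 9 reads in caNIK and 130 and 155 in control (log2 fold change -3.36 ± 0.55, edgeR adjusted p = 0.0073). Of the 7 tested clade B serpins besides Serpinb8, 5 were called higher and 0 lower. Serpinb6b had 181 ± 17.6 CPM in caNIK and 11.3 ± 1.24 CPM in control, and Serpinb9, an inhibitor of granzyme B, had 196 ± 51.1 CPM in caNIK and 16.6 ± 3.13 CPM in control. Among calmodulin-dependent kinases, 2 of 10 relatives of Camk1g were lower and 0 higher. These calls, Camk1d at -1.28 ± 0.31 and Camkk1 at -1.19 ± 0.33, were lost without caNIK replicate 2, and that of Camkk1 also without control replicate 1 (edgeR adjusted p up to 0.059 and 0.16).

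Ocstamp, the partner of Dcstamp in cell fusion, had 13 and 22 reads in caNIK and none in control, at least 12.7-fold higher, a call lost without control replicate 2 or caNIK replicate 1 (edgeR adjusted p up to 0.083). Vcan, a proteoglycan related to Acan, rose by 3.27 ± 0.70. Without caNIK replicate 2 its log2 fold change was 2.32 and the call was lost (edgeR adjusted p = 0.099). In the RASSF family Rassf4 and Rassf6 rose by 2.76 ± 0.24 and 4.72 ± 0.45 (edgeR adjusted p = 7.2e-04 and 9.5e-04), and none of the 8 tested relatives of Rassf9 passed as lower. Rassf8, with 6 and 22 reads in caNIK and 64 and 63 in control, had a log2 fold change of -2.10 ± 0.72 that did not pass (edgeR adjusted p = 0.085).

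**Figure D5:**
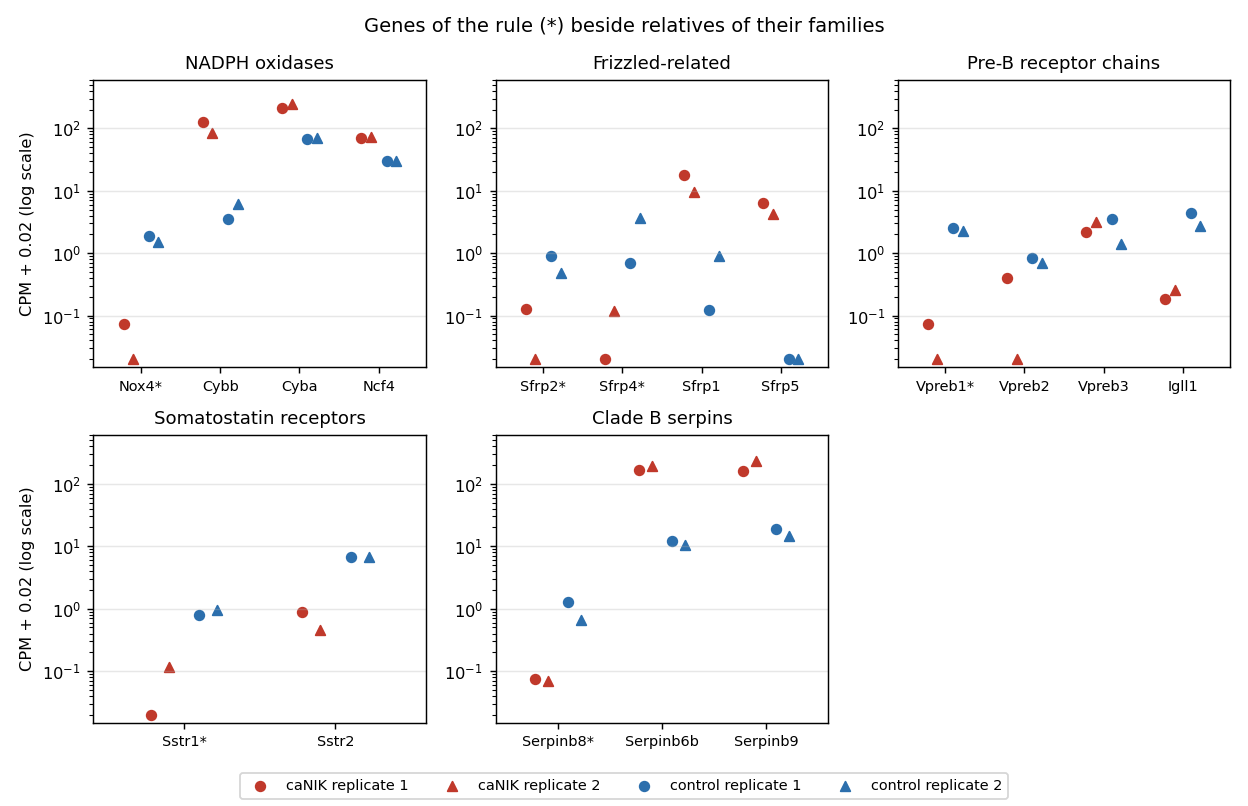
Level of 17 genes of 5 families in each library, in CPM + 0.02 on a log scale, with caNIK libraries in red, control libraries in blue, circles for replicate 1 and triangles for replicate 2. Asterisks mark genes of the set, whose red points lie at the bottom of each panel. Cybb, Sfrp1, Sfrp5, Serpinb6b and Serpinb9 have their red points above the blue ones, while Igll1 and Sstr2 have them below.

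Marker lists of blood lineages show what else moved in the same libraries, where 8.21% of all genes tested were lower and 13.8% higher. Of 9 stem cell markers, 8 were tested, 3 were lower, among them Hlf and Fgd5, and none was higher, and their summed level was 155 and 83.7 CPM in caNIK and 595 and 532 CPM in control. Hoxb5, which was not tested, had no caNIK read and 4 and 20 control reads. Besides Vpreb1, 9 markers of B cell precursors were tested, of which 5 were lower and 0 higher. The lower ones were Igll1, Ebf1, Pax5, Rag1 and Rag2, and with Vpreb1 the list summed to 96.9 and 61.5 CPM in caNIK and 262 and 142 CPM in control. Ebf1, Pax5 and Rag2 lost the call when caNIK replicate 2 was left out (edgeR adjusted p up to 0.065, 0.10 and 0.17 over all alternatives). Pax5 and Rag2 also lost it without control replicate 1, and Rag2 without caNIK replicate 1. The median B marker besides Vpreb1 had a log2 fold change of -1.71.

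Among megakaryocyte markers, the lineage of G6b, 4 of 6 were higher and 1 lower. Endothelial markers had 5 lower and 0 higher of 11. Granulocyte-monocyte markers had 4 lower and 6 higher of 14, and eosinophil markers 1 lower and 0 higher of 4. Erythroid markers had 6 of 8 higher, and mast cell and basophil markers 6 of 8 higher, with none lower in either. Dendritic cell markers had 3 of 5 and NK cell markers 1 of 6 higher, and no macrophage (5 tested), T cell (7) or sex-linked (5) gene passed. Summed levels were 2927 and 4443 CPM in caNIK and 420 and 720.5 CPM in control for erythroid genes, and 1880 and 904 CPM in caNIK and 47.5 and 89.9 CPM in control for mast cell and basophil genes. The part of these shifts in the low caNIK counts of the 32 genes was not tested.

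Further lists, written with large falls of other genes already known, held no gene of the set. Together with the Wnt antagonists they had 77 tested genes, of which 18 were lower and 15 higher, and their median was 0.08 on the log2 scale. The shares over all genes tested were 8.21% lower and 13.8% higher. Since known falls shaped these lists, nothing is read from their counts of lower genes. Lower and higher counts were 3 and 0 of 9 sialomucins, 4 and 0 of 17 junction and vessel genes, and 2 and 0 of 4 network-forming collagens. They were 1 and 0 of 3 leucine-rich repeat neuronal genes, 1 and 0 of 3 melanocortin genes, 2 and 3 of 13 potassium channel subunits, and 2 and 9 of 20 Bcl-2 family genes. Emcn, the sialomucin endomucin, came near the limits of the rule with 1 and 6 reads in caNIK and 401 and 369 in control.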

How the data were processed

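The authors deposited 1 table of raw read counts per gene symbol for each of 4 libraries, per the file headers. DESeq2 1.10.1, featureCounts 1.5.0, TopHat2 2.1.0, FastQC and the build mm9 are listed, with no role or order, in the submitters' processing notes. No source used here gives the annotation release, the strand setting or the treatment of multi-mapped reads. GRCm38 tables of RefSeq and GENCODE M21 gave names, gene order, exon lengths and promoters. Of 24015 symbols, 23876 were found there as symbols or synonyms.

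Counts were tested in R 4.3.3 with edgeR 4.0.16 (filterByExpr, TMM, quasi-likelihood F test, two-sided, group as the only term), tried first on simulated data. Log2 fold changes are caNIK over control with SE. DESeq2 1.42.0 and other settings were alternatives. Counting intervals cover counting error only, and floors only that of the group without reads.

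The rule, gene lists and tests were chosen with earlier results of these data known. Of the 32 genes of the rule 30 are named, and the other 2, with their flanking genes, are not reported here. Of flanking and list genes, those past the threshold with a 4-fold change, and a few others per list, were eligible. Family lists were drawn up after the genes were seen, and some eligible genes are not described.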

Additional observations from a re-analysis of the deposited data

How the results depend on the processing

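The size of the set followed the limits. With at most 1 or at most 5 caNIK reads in place of 3, 21 and 59 genes met the rule, and with at least 5 or at least 20 control reads in place of 10, 101 and 11 did. Leaving out 1 library while keeping the limits on the others gave 73 to 123 genes, and all 32 genes were among them, as fewer conditions then had to be met. Counts scaled to the mean effective library size gave 23. The median control level was 0.921 CPM, and 0.810 to 1.09 CPM in 1 control library alone.

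Lower genes over the whole table numbered 1165. With the replicate number as a block there were 1766. Deviations of same-numbered libraries from their group means correlated at 0.213. The labels do not say whether a number marks shared animals or days, so whether such libraries share more than a number cannot be told. Flanking genes lower in caNIK numbered 4, and 7 by DESeq2, and the cause was not tested. The other counts of lower and higher genes, over the whole table, flanking genes and related lists, moved by no more than 1.5 times under each alternative. Pooled over the windows, the promoters were 57.6% G and C, and 60.1% in the 150 bases nearest the start, against 53.8% and 56.0% over all promoters; the shorter window alone sets that difference. Of 75 named or listed genes past the threshold that are not of the set, 59 passed under every alternative. A count of 10 reads, the floor of the rule, limits what can be said of any single gene.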
